A study of Mus musculus with 27 samples.

Results

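Chamber endocardial and vascular endothelial cells were taken from a single-cell table of E11.5 mouse hearts (E counts embryonic days), and they numbered 303 of 6032 cells (5.02%). A barcode was a member if haemoglobin genes held under 10% of its unique molecular identifiers (UMIs, each a counted RNA molecule), if 5 myocardial genes (Tnnt2, Actc1, Myl7, Myl4 and Tnnc1) held under 0.5%, and if the endothelial genes Pecam1, Cdh5 and Egfl7 gave at least 3 UMIs. Among those endothelial cells, the chamber genes Npr3, Gpr182, Plvap and Irx5 had to hold more UMIs than the cushion genes Wnt4, Nts, Stmn2 and Pi16. The library labelled +/+ held 128 members of 2563 cells (4.99%, exact 95% binomial interval 4.18% to 5.91%). The library labelled F/F held 175 of 3469 (5.04%, 4.34% to 5.83%), so the shares differed by less than counting error.

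Each single-cell library combined the sorted living cells of 6 trypsinised C57BL/6 hearts, from Hand2as+/+ or Hand2asF/F embryos of heterozygous parents. The F allele removes the full length of the long non-coding RNA gene Hand2os1 (also Hand2as or Uph), the neighbour of the transcription factor gene Hand2. With 1 library per genotype the difference between genotypes had no replicate check and no test, and every interval below covers counting error only. Bulk messenger RNA of 3 Hand2asF/+ and 3 Hand2asF/F hearts of the same day, which the rule did not use, gave the replicated comparison. Its controls were heterozygous for the F allele, while the single-cell control carried none.

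The endocardium is the endothelial lining of the heart. Over the chambers it borders the trabeculae and signals to the myocardium through Notch, neuregulin, endothelin and BMP pathways, and over the atrioventricular canal and outflow tract it lines the cushions and gives rise to valve mesenchyme. Coronary vessels grow from the sinus venosus and the endocardium, and vascular endothelial cells share most endothelial genes with the endocardium. Hand2 is a basic helix-loop-helix factor that is active in endocardium as well as in myocardium, epicardium and cushion mesenchyme.

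The deleted gene lies beside the gene that the comparison between genotypes turned on, so the sequence at the start of Hand2 is shown first. In the RefSeq annotation of GRCm38.p6, Hand2os1 spans chr8:57304261-57320859 and Hand2 spans chr8:57320983-57324517 on the plus strand, with 123 bases between them. The 250 bases before the Hand2 start (chr8:57320733-57320982, plus strand) are printed 5′ to 3′, with the 127 bases that lie inside the Hand2os1 gene in capitals.
Hand2: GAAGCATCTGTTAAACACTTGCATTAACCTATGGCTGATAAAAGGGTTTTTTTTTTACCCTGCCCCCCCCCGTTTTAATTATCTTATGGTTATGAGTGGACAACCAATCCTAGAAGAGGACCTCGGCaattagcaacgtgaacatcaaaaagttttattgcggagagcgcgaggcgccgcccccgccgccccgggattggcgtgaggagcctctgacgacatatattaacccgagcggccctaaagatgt
The bases in capitals belong to both the annotated Hand2os1 gene and the region just before Hand2. Where the F deletion ends is not given in the sources used here.

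Endothelial promoters are known to carry sites for ETS factors, so the windows of the genes highest in the members were searched for 5 motifs on both strands. RefSeq windows of 250 bases before and 50 bases after the start were found for 14 of the 20 genes named below, in 16 windows. The ETS motif GGAAGT or its reverse complement ACTTCC was in 6 of the 16 windows (37.5%), against 23.8% of all 32851 windows. These were the windows of Tm4sf1, Gimap1, Kdr, Gimap6, Tie1 and Gatm. The GATA motif GATAAG was in 1 (6.25% against 7.44%), the E-box CATCTG in 3 (18.8% against 17.2%), the RBPJ motif TGGGAA in 4 (25% against 25.6%) and the forkhead motif GTAAACA in 0 (against 3.65%). The ETS and RBPJ motifs can share the letters GGAA, and a match is a description of the letters only. The 250 bases before the starts of 2 receptor genes, Kdr (chr5:75978456-75978705, minus strand) and Tie1 (chr4:118489850-118490099, minus strand), are printed 5′ to 3′. Matches to GGAAGT or ACTTCC are in capitals. Beside them is the window of Emcn (chr3:137340828-137341077, plus strand), the gene highest in the members, which held no such match. The shorter letters GGAA or TTCC occur unmarked in each of these windows, so a lack of capitals does not mean a lack of ETS sites.
Kdr: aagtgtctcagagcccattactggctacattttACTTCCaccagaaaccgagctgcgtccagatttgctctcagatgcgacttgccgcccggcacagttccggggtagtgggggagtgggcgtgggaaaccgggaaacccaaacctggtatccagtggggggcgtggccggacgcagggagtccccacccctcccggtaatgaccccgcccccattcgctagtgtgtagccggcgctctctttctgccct
Tie1: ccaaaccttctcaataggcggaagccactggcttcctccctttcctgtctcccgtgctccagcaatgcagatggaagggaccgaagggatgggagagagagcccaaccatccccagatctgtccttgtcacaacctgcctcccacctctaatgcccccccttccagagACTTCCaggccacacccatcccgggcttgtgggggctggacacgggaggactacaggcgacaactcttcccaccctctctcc
Emcn: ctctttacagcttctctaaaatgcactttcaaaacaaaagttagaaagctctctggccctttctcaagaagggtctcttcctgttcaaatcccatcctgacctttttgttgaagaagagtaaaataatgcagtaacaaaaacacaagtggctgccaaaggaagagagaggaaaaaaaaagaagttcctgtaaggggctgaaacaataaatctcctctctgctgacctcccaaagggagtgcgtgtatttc

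The members were deeply covered cells. Their median UMI count was 15547.5 in the +/+ library and 14530 in the F/F library, with medians of 3661.5 and 3567 genes, and they summed to 2.0728e+06 and 2.76619e+06 UMIs. The whole libraries had medians of 13369 and 13403 UMIs per cell. In the members a gene without a UMI could still have stood at up to 1.45 (+/+) or 1.08 (F/F) CPM, the level of 3 counts. CPM stands for counts per 1000000, the UMIs of a gene over all UMIs of the cells summed on that scale. Of the barcode sequences, 18 were in both libraries, and 2 members carried such a barcode. The members' Xist level was 707 CPM in the +/+ and 877 CPM in the F/F library, while the Y-linked genes Ddx3y and Eif2s3y stood at 9.17 and 5.31 CPM in the +/+ members and had 0 UMIs in the F/F members, so the pools differed in sex make-up. In the bulk hearts Xist ranged from 0 to 27.6 FPKM, and both genotypes held libraries with Xist above 10 FPKM and with Xist near 0.

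At the edges of the rule the members passed into the cells left out. The summed level of Emcn, Gja4, Cd93 and Kdr, which the rule did not count, was 68.9 CPM in the 54 members with exactly 3 endothelial UMIs and 56.0 CPM in the 90 cells with 2. It was 49.6 CPM in the 70 members whose chamber score led by 1 UMI and 28.4 CPM in the 164 cells with a tie, of which 141 had 0 UMIs of all 8 genes. In 122 members the chamber score led by 10 UMIs or more. The same rule with the scores exchanged gave 214 cushion endocardial cells (86 +/+ and 128 F/F), which are used below as the most similar cells.

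All 6 marker genes given for these cells were high in the members as a whole. Emcn (endomucin, a surface sialomucin of endothelium) stood at 271 CPM in the +/+ and 255 CPM in the F/F members, against 2.48 and 3.08 CPM in all other cells. That is 109-fold (interval 87.1 to 138) and 82.7-fold (69.2 to 99.3). Gja4, the connexin 37 gene, was 80.4-fold and 70.1-fold higher, and Cd93, a C-type lectin-like receptor of endothelium, 27.5-fold and 23.7-fold. The ratios of the counted chamber genes follow from the rule. They were 34.6 and 31.6 for Npr3, the natriuretic peptide clearance receptor, 47.2 and 41.5 for the receptor gene Gpr182, 36.1 and 28.1 for Plvap, which forms endothelial fenestral diaphragms, and 53.4 and 86.8 for the homeobox gene Irx5. Since these cells were chosen by their expression, the contrast with other cells describes them and tests nothing.

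Of 2730 genes that reached 100 UMIs in the members of both libraries, 92 (3.37%) were at least 4-fold higher than in all other cells in both libraries. The 20 highest that the rule did not count were, in order, Emcn, Gja4, Mnda, Tm4sf1, Tmem100, Ednrb, Cd93, Gimap1, Mmrn2, Esam, Smagp, Ctla2a, Ecscr, Rasip1, Dusp2, Kdr, Plxnd1, Gimap6, Tie1 and Gatm. Tm4sf1, a tetraspanin-like membrane protein, stood at 225 and 228 CPM, 55.2-fold and 47.2-fold above other cells. Tmem100, an endothelial membrane protein downstream of ALK1 signalling, was 75.7-fold and 46.3-fold higher. The endothelin receptor gene Ednrb was 31.3-fold and 35.0-fold higher, and the VEGF receptor gene Kdr 18.8-fold and 15.1-fold. Plxnd1, the semaphorin receptor, was 18.1-fold and 14.6-fold higher and the orphan receptor kinase gene Tie1 17.8-fold and 14.4-fold. Of the 20, Ednrb and Gimap1 had the higher ratio in the F/F library and the others in the +/+ library.

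**Figure D1:**
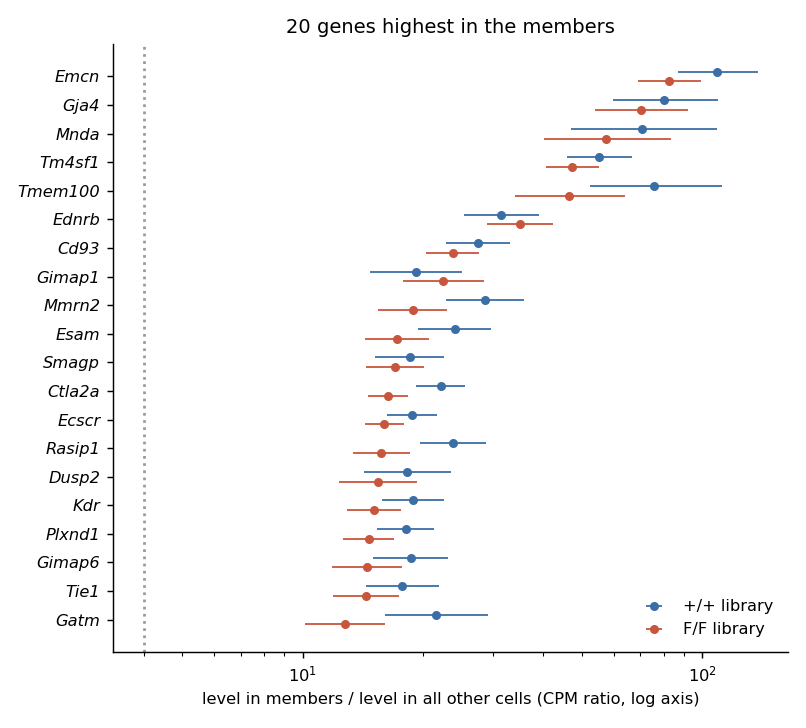
Ratio of the level in members to the level in all other cells of the same library for the 20 highest genes that the rule did not count, on a log axis. Points are the +/+ and F/F libraries with exact 95% intervals, and the dotted line marks the 4-fold limit; Emcn (109 and 82.7) is highest, and every gene lies above the line in both libraries.

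Across the lists of known genes, pan-endothelial genes stood high, and vessel genes were mixed. All 17 pan-endothelial genes that reached 100 UMIs in both libraries were at least 4-fold higher than in other cells, and the 25 genes of that list summed to 3565 and 3323 CPM against 303 and 317 CPM. Pecam1, Cdh5 and Egfl7 are in that count and in those sums, so part of both follows from the rule. Of the 12 endocardial genes with that coverage, 5 were 4-fold higher in both libraries. Of these, Npr3, Gpr182 and Irx5 were counted by the rule, and Tmem100 and Nfatc1 (4.83-fold and 5.52-fold), a valve transcription factor gene, were not. Those that were not included Gata6 (0.956 and 1.26 times the level of other cells) and Tbx20 (0.863 and 0.973), cardiac transcription factors that the myocardium also expresses. Among capillary genes, the fatty acid binding protein gene Fabp4 had 0 and 7 UMIs, and Apln, the apelin gene of angiogenic tip cells, 7 and 0. The scavenger receptor gene Cd36 had 1 and 3 UMIs, each in a different cell. Cldn5, the tight junction gene of vessels, stood at 21.2 and 18.8 CPM with UMIs in 12 and 14 members only. The arterial connexin gene Gja5 had 2 and 6 UMIs, the lymphatic factor gene Prox1 8 and 10, and the liver sinusoid gene Stab2 0 in both libraries. Plvap, Cd93 and Fabp5 (1279 and 1265 CPM) carried nearly all of the summed level of the vascular list. Other genes of the same lists stood higher in members than in other cells. Of the arterial list, Gja4 had UMIs in 62 and 76 members, and the kinase gene Bmx, 9.97-fold and 8.46-fold higher, in 60 and 51. Flt4, the VEGF receptor gene on the venous and lymphatic lists, was 24.5-fold and 12.02-fold higher, with UMIs in 37 and 30 members. Clec4g, a lectin gene on the liver sinusoid list, was 33.5-fold and 59.0-fold higher at 22.2 and 20.6 CPM. How many members were vessel cells was not settled by these lists, since single genes of each went both ways. Cushion endocardial cells held similar sums, so the sums do not set the members apart from them. The pan-endothelial list summed to 3583 and 3516 CPM in cushion cells. The endocardial list summed to 1393 and 1227 CPM there and to 1256 and 1274 CPM in members. The vascular list summed to 2037 and 1605 CPM there and to 1918 and 1832 CPM in members.

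Clustering of the members alone, by the Leiden method at resolution 0.5, gave 5 sub-clusters. Each held cells of both libraries, from 8.59% of the +/+ and 6.86% of the F/F members in sub-cluster 3 to 32.0% and 34.3% in sub-cluster 0. Their genes describe cells that were clustered on those genes. The 84 cells of sub-cluster 1 (35 +/+ and 49 F/F) were led by Mndal, Tmem100, Ifi205, Col26a1 and Emcn. There Emcn stood at 584 CPM against 147 CPM in other members, and Gja4 at 237 against 66.9 CPM. The 45 cells of sub-cluster 2 (21 and 24) were led by Trf (transferrin), Dlk1, Mxd3, Tmem80 and Fam64a, with the mitotic motor genes Kif23 and Cenpe further down the order. Its 15 mitosis genes summed to 3141 CPM against 456 CPM in sub-cluster 1, while Emcn stayed at 409 and 434 CPM in the 2 libraries. Irx5 was 193 CPM in it against 61.9 CPM in other members. The hepatocyte list summed to 1563 CPM there against 5.71 CPM elsewhere, from 2 +/+ cells described below. All 6 markers were higher in the 129 cells of sub-clusters 1 and 2 than in any other sub-cluster, in both libraries.

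Sub-cluster 0, with 101 cells (41 and 60), held more RNA of cushion genes than the other endothelial-led sub-clusters. Its leading genes were the water channel gene Aqp1, Stmn2, the Wnt-induced secreted factor gene Wisp1, the elastin gene Eln and Cdo1, a cysteine dioxygenase. Stmn2 is a cushion gene of the rule, although its members hold more chamber UMIs. The 16 cushion genes summed to 1435 CPM against 882 CPM in other members, and Emcn stood at 84.6 and 155 CPM. The vasoconstrictor peptide gene Edn1 was 269 CPM there against 53.7 CPM. The pan-endothelial genes summed to 4075 CPM, against 4967 CPM in sub-cluster 1.

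Sub-clusters 3 and 4, with 73 cells, were led by genes of other cell types. The 23 cells of sub-cluster 3 were led by Coro1a, Rac2, Bin2, Tyrobp and Lyz2, genes of white blood cells, and their pan-endothelial sum was 505 CPM against 3859 CPM in other members. Of these cells, 7 had at least 10 UMIs of macrophage markers, 6 of megakaryocyte markers and 10 of epicardial markers, so the sub-cluster was mixed. Of the same cells, 10 (5 +/+ and 5 F/F) had at least 10 UMIs of pan-endothelial markers. Cells outside the members held 303 and 317 CPM of that list, and the median cell of sub-cluster 3 had 25887 UMIs. The list also holds the endothelial genes of the rule. This count therefore does not show how many of the cells were endothelial. Emcn had 0 UMIs in the +/+ cells of sub-cluster 3 and 14 in its F/F cells, all in the same cell. The 50 cells of sub-cluster 4 were led by Rgs5, Clmp, Rtn1, Col9a3 and Tagln, and Pdgfra, the mesenchymal receptor kinase gene, was among their 10 leading genes. Their mesenchymal genes summed to 1596 CPM against 436 CPM. Their 16 cushion genes summed to 2107 CPM against 799 CPM in other members, the highest of the 5 sub-clusters, and Emcn had 0 and 2 UMIs. The other 230 members, 97 (75.8%) of the +/+ and 133 (76%) of the F/F members, are called endothelial-led below, and results between libraries are given for them too. They were chosen after the clusters had been seen.

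**Figure D2:**
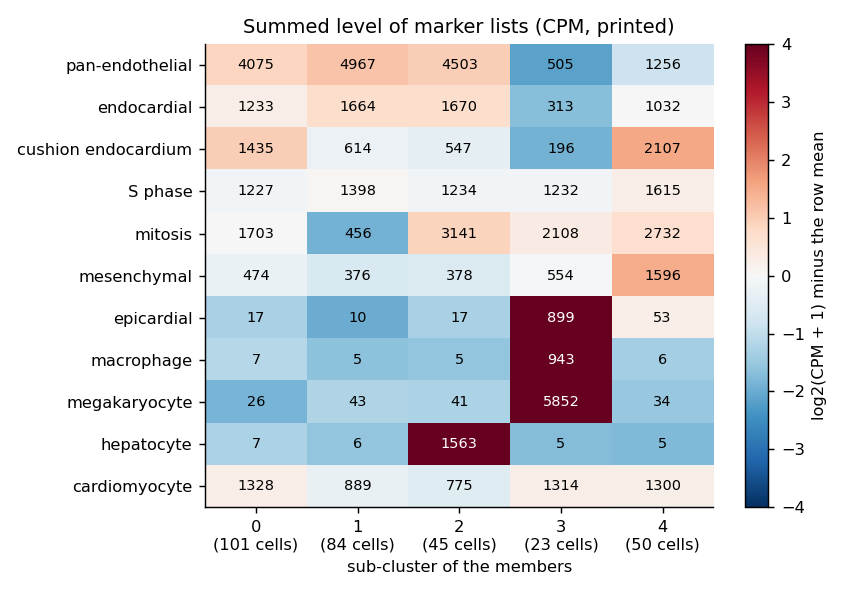
Summed level (CPM, printed in each cell of the heat map) of 11 gene lists in the 5 sub-clusters of members, with colour for the level relative to the mean of the list. Sub-clusters 0, 1 and 2 hold 4075, 4967 and 4503 CPM of pan-endothelial genes, sub-cluster 3 holds the macrophage, megakaryocyte and epicardial genes, sub-cluster 4 the mesenchymal genes.

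The members were also set against the 214 cushion endocardial cells. Of 5129 genes with 100 UMIs in the members, 71 (1.38%) were at least 2-fold higher in members in both libraries, and of 3552 with 100 UMIs in the cushion cells, 95 (2.67%) were 2-fold lower. Each direction used the genes that passed this limit in the group where they were high, so the counts describe the cells and support nothing further. Counts under 3 were set to 3 in these ratios. The genes highest against cushion cells were Pf4, Gp1bb and Gp9, platelet genes that a few cells of sub-cluster 3 held. Then followed Gm43194, Tm4sf1 (7.19-fold in +/+ and 6.33-fold in F/F), Sost, Gja4 (5.75 and 6.41), Emcn (5.99 and 5.45), Klhl4 and Dlk1 (7.14 and 5.27). The genes lowest against cushion cells were Pthlh, Mfap5, Ccdc141, Cdo1, Pgf, Cyp26b1, Prrt4, Serpinb1a, Tinagl1 and Angptl2. Cdo1 stood at 28.9 and 36.2 CPM in members against 193 and 270 CPM in cushion cells, and the matrix gene Tinagl1 at 42.9 and 56.0 CPM against 308 and 303 CPM. Pgf, which encodes placental growth factor, was 3.86 and 5.06 CPM against 59.0 and 31.2 CPM.

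Between the genotypes, 5129 genes reached 100 UMIs over all members. A gene was called if its CPM ratio was at least 1.5 in either direction and its interval lay on 1 side of 1. In the F/F library 79 (1.54%) were called higher and 195 (3.80%) lower, with a median log2 ratio of -0.01 over all genes. In the endothelial-led members 73 were higher and 118 lower of 3956, and 121 of the 274 calls were also calls there, 34 higher and 87 lower. A few cells held many of the called genes' UMIs: more than 50% lay in 3 cells for 6 of the 79 higher (7.59%) and 32 of the 195 lower genes (16.4%), against 0.676% of all pairs of a tested gene and a library with 50 UMIs or more.

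Hand2, the gene beside the deletion, was higher in the F/F members. It had 201 UMIs in the +/+ and 590 in the F/F members, which is 97.0 and 213 CPM and a ratio of 2.20 (1.87 to 2.59). At least 1 UMI was seen in 81 of 128 and in 161 of 175 members, or 63.3% and 92%. After each cell was thinned to 5000 UMIs, the shares were 33.6% (42 of 125, interval 25.4% to 42.6%) and 63.9% (108 of 169, 56.2% to 71.1%). The highest cell held 11 UMIs in the +/+ and 19 in the F/F library, 5.47% and 3.22% of the gene's UMIs, so no single cell carried the difference.

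The Hand2 difference was present in each endothelial-led sub-cluster and, at a lower ratio, in other cells. The levels were 111 and 314 CPM in sub-cluster 1 (ratio 2.82, 2.12 to 3.80), 67.7 and 180 CPM in sub-cluster 0 (2.66, 1.80 to 4.02), and 141 and 317 CPM in sub-cluster 2 (2.25, 1.64 to 3.12). These intervals overlap. In the mesenchyme-led sub-cluster 4 it was 120 and 160 CPM (1.33, 0.908 to 1.99), and the blood-led sub-cluster 3 had 6 and 16 UMIs. In the endothelial-led members Hand2 stood at 106 and 258 CPM, a ratio of 2.44 (2.03 to 2.95). Cushion endocardial cells had 116 and 187 CPM (1.61, 1.31 to 1.996), and all other cells 47.1 and 70.8 CPM (1.504, 1.42 to 1.59). The interval of the endothelial-led members lay above those of the cushion cells and of all other cells, a comparison of 2 libraries and not of genotypes. For all members the interval (1.87 to 2.59) lay above that of all other cells but overlapped that of the cushion cells. The gap to cushion cells was thus seen only in the set chosen after the clusters had been seen.

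Red blood cell precursors gave the background level of Hand2 RNA in cells taken to lack it. Erythroid cells, with at least 50% of UMIs in haemoglobin genes, held 16 and 79 Hand2 UMIs, or 1.19 and 4.39 CPM, and after thinning 0.583% and 2.07% of them had a UMI. Their median depth was 10966.5 and 11698.5 UMIs. The members' shares of 33.6% and 63.9% lay far above those, and the background itself was also higher in the F/F library. Hand1, the paralogue of Hand2, had 5 and 9 UMIs in the members (2.41 and 3.25 CPM). Hand2os1, listed as Gm28063, had 0 and 1 UMIs, so the deleted gene was at or under the 3-count level in members of both genotypes and its loss could not be checked in these cells.

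**Figure D3:**
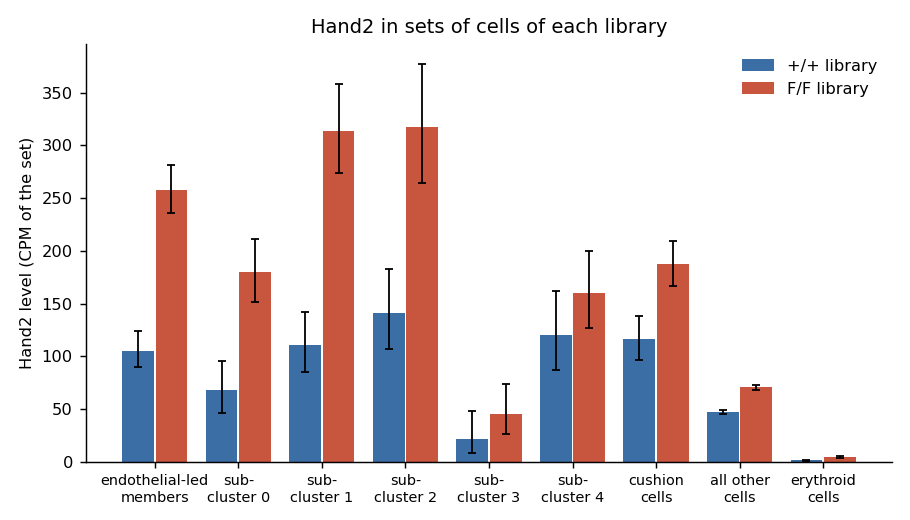
Level of Hand2 (CPM of summed UMIs, from 0) in the endothelial-led members, the 5 sub-clusters, cushion cells, all other cells and erythroid cells, as paired bars for the +/+ and F/F libraries with exact Poisson intervals for counting error. Sub-clusters 1 and 2 reach 314 and 317 CPM in F/F from 111 and 141 CPM in +/+, and erythroid cells stay at 1.19 and 4.39 CPM.

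Few of the genes that name these cells were called between libraries, and few were over all genes (1.54% higher and 3.80% lower). Lists of this size cannot show fewer calls than that share. Of the 22 pan-endothelial genes tested, 1 was higher, 0 were lower and the median log2 ratio was -0.17, with 4 ratios above 1, against -0.01 over all genes. The list includes Pecam1, Cdh5 and Egfl7, which the rule counted, and Pecam1 (ratio 1.10) is among the 4. Emcn was 271 and 255 CPM (ratio 0.942, 0.842 to 1.05), Cd93 145 and 143 CPM (0.987, 0.847 to 1.15) and Gja4 122 and 104 CPM (0.850, 0.715 to 1.01). The rule-counted Plvap (0.895), Gpr182 (0.929), Npr3 (0.757, 0.640 to 0.897) and Irx5 (0.999) were not called either. The gene called higher was Clec14a, an endothelial C-type lectin, with 38 and 81 UMIs (18.3 and 29.3 CPM, ratio 1.60, 1.07 to 2.41). It had a UMI in 25 of 128 and 48 of 175 members. After thinning to 5000 UMIs the shares were 11.2% (14 of 125, 6.26% to 18.1%) and 12.4% (21 of 169, 7.86% to 18.4%), and their intervals overlapped. In cushion cells the ratio was 0.902 (0.555 to 1.48). Of the 13 endocardial genes tested, Hand2 was called higher, 0 were lower, and Gata5 fell just short at 30.9 and 46.3 CPM (ratio 1.499, 1.10 to 2.06). In the endothelial-led members Gata5, a cardiac GATA factor gene, was called higher, with 44 and 94 UMIs (30.3 and 49.0 CPM, ratio 1.62, 1.12 to 2.37).

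Among the genes of flow response and signals to the myocardium, Edn1 and Nos3 were lower in the F/F members. Of 9 flow-response genes tested 0 were higher and 2 lower. Of 7 genes for signals from endocardium to myocardium 0 were higher and 1 lower, and that gene, Edn1, is on both lists. Over all 5129 genes 1.54% were higher and 3.80% lower. Edn1, which encodes endothelin-1, had 331 and 206 UMIs, or 160 and 74.5 CPM (ratio 0.466, 0.390 to 0.557). It was lower in sub-cluster 0 (465 and 155 CPM, 0.333) and not in sub-cluster 1 (35.3 and 35.6 CPM, 1.01). It was lower outside the members as well, at 468 and 182 CPM in cushion cells (0.389) and 59.0 and 22.2 CPM in all other cells (0.377).

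Nos3, the endothelial nitric oxide synthase gene, stood at 68.5 and 42.3 CPM (0.617, 0.479 to 0.794) with a ratio of 0.382 in sub-cluster 1 (127 and 48.5 CPM, 0.246 to 0.581). In sub-cluster 0 it was 71.9 and 60.3 CPM (0.839) and in sub-cluster 2 77.9 and 74.4 CPM (0.954). In cushion cells Nos3 was 76.5 and 74.97 CPM (0.979). Klf2, the flow-responsive zinc finger factor, was 253 and 350 CPM (ratio 1.38, 1.24 to 1.54), under the 1.5-fold limit, and its ratio in all other cells was 1.42. Nrg1, the neuregulin that drives trabeculation, had 54 and 97 UMIs (ratio 1.35, 0.955 to 1.91) and was not called.

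Hes1, a repressor downstream of Notch, was lower in F/F in members and elsewhere. It was 305 and 172 CPM in members (0.563, 0.499 to 0.635), 288 and 172 CPM in cushion cells (0.598) and 111 and 63.4 CPM in all other cells (0.571). Within the endothelial-led members the ratio of Hes1 was 0.392 in sub-cluster 0, 0.515 in sub-cluster 1 and 0.656 in sub-cluster 2. Together these held 536 of the 632 UMIs in +/+ and 349 of the 475 in F/F, a ratio of 0.493. The ratio over all members was higher, so the decrease was weaker in sub-clusters 3 and 4 together. Of the 6 Notch genes tested, Hes1 was the gene called, against 1.54% higher and 3.80% lower over all genes. The receptor gene Notch1 stood at 67.1 and 73.0 CPM (1.09). The ligand gene Dll4 had 26 and 32 UMIs. The effector Hey1, which also responds to Notch, was 25.6 and 28.2 CPM (1.10).

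The BMP, cushion, vascular and arterial lists held 1 or 2 calls each, against 1.54% higher and 3.80% lower over all genes. In the BMP and TGF-beta list 0 of 12 genes tested were higher and 1 was lower. Tgfb1, the ligand gene, stood at 114 and 62.5 CPM (0.547, 0.447 to 0.668) with ratios of 0.602 in cushion cells and 0.559 in all other cells. The BMP target genes Id1 (219 and 277 CPM, 1.27), Id2 (437 and 595 CPM, 1.36) and Id3 (852 and 1036 CPM, 1.22) had ratios above 1 and below the limit. Of the 9 cushion genes tested 2 were lower, the Wnt ligand gene Wnt4 (39.1 and 20.2 CPM, 0.518), which the rule counted, and the mesenchymal factor Twist1 (106 and 68.3 CPM, 0.647). Twist1 was 0.497 times its +/+ level in all other cells. Of 4 vascular genes tested 1 was lower, the carbonic anhydrase gene Car4 (84.9 and 43.0 CPM, 0.507). Car4 had UMIs in 20 and 19 members, 43.2% and 51.3% of them in 3 cells, and its ratio was 1.16 in cushion cells. The arterial kinase gene Bmx, at 48.7 and 31.8 CPM (0.653, 0.485 to 0.878), was the gene called of 6 arterial genes tested, with a ratio of 1.67 (1.03 to 2.76) in cushion cells.

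Several lists gave no call in members: 0 of 17 basement membrane and matrix genes, 0 of 8 junction genes, 0 of 6 VEGF and angiopoietin genes and 0 of 5 guidance genes. Over all genes 1.54% were higher and 3.80% lower. Lists this short cannot be told apart from that share, and the same holds for the S-phase and mitosis counts below. The medians of the log2 ratios in these 4 lists lay between -0.24 and -0.07. The collagen IV genes Col4a1 (290 and 227 CPM, 0.783) and Col4a2 (181 and 146 CPM, 0.805), the core chains of the basement membrane, had intervals below 1 and ratios inside the limit. Of 15 S-phase genes the cyclin gene Ccne2 was lower (62.7 and 34.3 CPM), and of 14 mitosis genes the kinesin gene Kif11 (30.9 and 17.7 CPM). Neither was a call in the endothelial-led members, where the ratio of Ccne2 was 0.694 (0.504 to 0.955) and Kif11 had 38 and 27 UMIs, under the limit of 100. The calls on these lists were different there: the uracil glycosylase gene Ung was higher (2.02, 1.34 to 3.11) and the mitotic kinase gene Plk1 lower (0.625, 0.450 to 0.865), against 1.23 and 0.847 in all members. The lists summed to 1355 and 1332 CPM for S phase and to 1858 and 1845 CPM for mitosis, with median log2 ratios of 0.01 and -0.01.

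**Figure D4:**
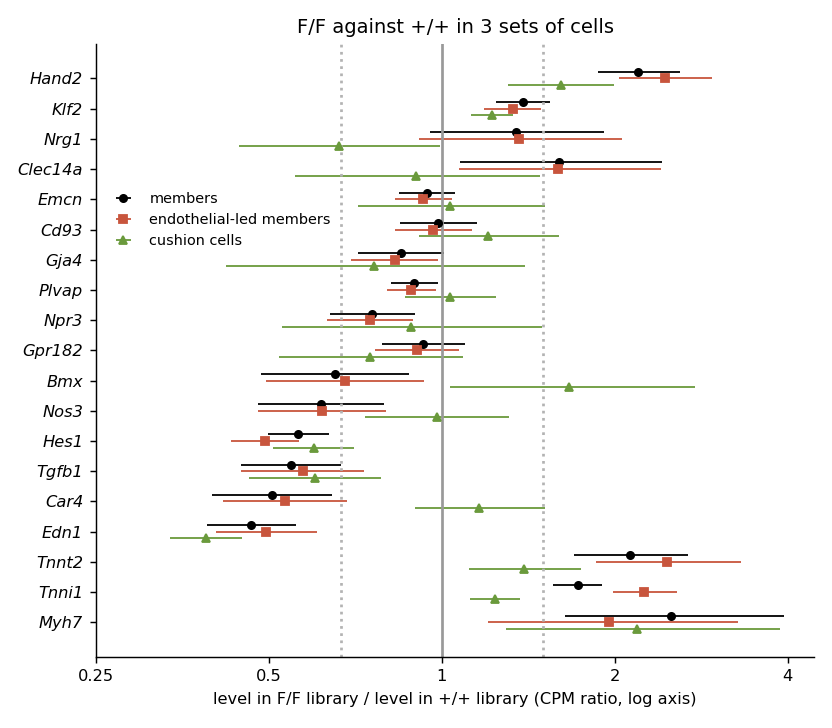
Ratio of F/F to +/+ CPM for 19 genes, on a log axis, in all members, endothelial-led members and cushion cells, with exact 95% intervals and dotted lines at 1.5-fold. Hand2 lies at 2.20, 2.44 and 1.61 and Edn1 and Hes1 lie below 1 in each set, while Nos3 is at 0.617 in members and 0.979 in cushion cells.

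The 12 genes highest in the F/F members were Tyrobp, Ctsc, Csrp3, Slc39a1, Plac8, Cryab, Myh7, Coro1a, Tnnc1, Tnni3, Acta2 and Hand2. Slc39a1, a zinc transporter gene, had 41 and 147 UMIs, a ratio of 2.69 (1.89 to 3.90), and in the endothelial-led members 3.30 (2.17 to 5.16). Its ratio was 1.60 in cushion cells and 1.37 in all other cells. Tyrobp, an adaptor of myeloid cells, had 1 and 101 UMIs, with all 101 in F/F cells of sub-cluster 3 and 98% of them in 3 cells. Coro1a, a leukocyte actin regulator gene, had 48 and 154 UMIs, of which 1 and 3 were in the endothelial-led members. Plac8 had 28 and 96 UMIs and 7 and 3 in the endothelial-led members. The macrophage list summed to 50.7 and 183 CPM in all members and to 3.45 and 7.30 CPM in the endothelial-led ones.

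Contractile genes were higher in the F/F members, and some of them also in cells taken to lack them. All 7 cardiomyocyte genes tested were called higher in the F/F members, against 1.54% of all genes, with a median log2 ratio of 1.09. The rule had put an upper limit on 5 of them. The 12 genes of the list summed to 740 and 1393 CPM, and the median member stood at 586 CPM in the +/+ and 1258 CPM in the F/F library. The median of all other cells was 891 and 1630 CPM. Tnnt2 was 50.7 and 108 CPM in members and 25.7 and 65.4 CPM in erythroid cells. Tnni1, the slow troponin I gene, which the rule did not count, was 282 and 486 CPM in members and 35.9 and 81.5 CPM in erythroid cells. Myh7, the beta myosin heavy chain gene, was 14.0 and 35.1 CPM in members and 15.8 and 32.8 CPM in erythroid cells, and its ratio in all other cells was 0.947 (0.933 to 0.962). In cushion cells the ratios were 3.03 for Csrp3, 2.19 for Myh7, 2.24 for Tnni3 and 1.34 (0.960 to 1.88) for Cryab. Acta2, the smooth muscle actin gene, was lower in the F/F cushion cells (0.754, 0.613 to 0.929) and 2.43 (1.64 to 3.68) in the endothelial-led members. The part of the contractile RNA seen in other cells in the F/F calls of these 5 genes was not tested.

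The 12 genes lowest in the F/F members were the liver genes Afp, Rbp4, Apoa2, Ttr, Apoa1 and Apom, then Ppbp, Aldh1a3, Gm29666, Dqx1, Snhg9 and Ikzf5. Afp had 530 UMIs in +/+ and 1 in F/F, with 526 in sub-cluster 2, and the 3 highest +/+ cells held 98.4% of the UMIs of the 6 hepatocyte markers. The 2 +/+ members with at least 50 such UMIs had 11 counterparts among other +/+ cells and 0 in the F/F library. These 2 cells stayed in the endothelial-led members, where the hepatocyte list summed to 887 and 1.04 CPM. The liver genes named above are therefore among the 118 lower calls of that set. Ppbp, a platelet chemokine gene, had 113 and 3 UMIs, and all 5 megakaryocyte genes tested were lower, against 3.80% of all genes. Of the megakaryocyte-list UMIs, 96.8% and 91.7% lay in 3 cells of each library. In the endothelial-led members that list summed to 22.8 and 45.9 CPM.

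The last genes of that order were lower outside the members too. Snhg9, a small nucleolar RNA host gene, was 223 and 39.4 CPM in members (0.176, 0.142 to 0.218), 0.188 times the +/+ level in endothelial-led members, 0.160 in cushion cells and 0.220 in all other cells. Ikzf5, an Ikaros family zinc finger gene, had ratios of 0.268, 0.259, 0.331 and 0.378 in the same order. Gm29666 was 279 and 26.0 CPM (0.0932, 0.0719 to 0.119), with 519 and 27.1 CPM in sub-cluster 1, and 0.278 in all other cells. Aldh1a3, a retinaldehyde dehydrogenase gene, had 110 and 7 UMIs, with 70 and 4 in endothelial-led members and 506 and 214 in all other cells. Of the 274 genes called in members, 60 were called the same way in all other cells and 60 in cushion cells.

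The bulk E11.5 hearts gave a replicated comparison of the same genes in whole tissue. Levels were FPKM (fragments scaled by transcript length and by library size), a unit inferred from the values. The 11491 genes whose mean over the 6 hearts reached 1 FPKM entered a limma fit of log2(FPKM + 1). Nothing in the labels says whether the 3 hearts of a group came from separate litters, so the spread is that between these samples. With adjusted p under 0.05, limma called 1 gene (0.00870%), Mir6236, listed at 0 in the F/+ hearts (adjusted p = 1.50052e-09). At an unadjusted p under 0.05, limma gave 502 genes, and 1061 had groups that did not overlap. Haemoglobin genes held between 10.4% and 29.7% of the summed FPKM of a library, and the groups overlapped. In bulk tissue, fewer cells of a type and less RNA per cell cannot be told apart.

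The deleted gene Hand2os1, listed as LOC102636514, was at 0 FPKM in all 6 hearts, so the bulk values check no label. Hand2 showed no difference beyond the spread of the hearts. It was 58.6, 77.5 and 86.7 FPKM in the F/+ hearts and 75.9, 79.1 and 69.2 FPKM in the F/F hearts. The groups overlapped, with a log2 difference of 0.03 (SE 0.18, 95% interval -0.37 to 0.42, limma adjusted p = 0.999). The control there carried 1 F allele and the tissue held all cell types.

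The marker genes of the members gave no call either. Gpr182 was 49.4, 50.2 and 54.1 FPKM in F/+ and 52.3, 76.8 and 56.8 FPKM in F/F hearts, and the groups overlapped (log2 difference 0.25, -0.15 to 0.65). Plvap was 71.3, 79.5 and 96.5 FPKM against 89.4, 111.8 and 85.8 FPKM, again with overlap (0.21, -0.17 to 0.60). Npr3 was 17.6, 19.3 and 18.4 FPKM against 21.1, 21.3 and 16.2 FPKM (0.07, -0.35 to 0.49). Cd93 was 12.2, 12.7 and 8.16 FPKM in F/+ and 16.54, 15.8 and 13.8 FPKM in F/F, with no overlap (log2 difference 0.46, -0.04 to 0.97, limma adjusted p = 0.999). Gja4 (-0.07, -0.53 to 0.39) and Emcn (-0.33, -1.30 to 0.63) had negative log2 differences with overlapping groups.

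Edn1, Hes1, Wnt4, Twist1, Nos3, Tgfb1, Car4 and Bmx, called lower in the F/F members, had neither an adjusted nor an unadjusted limma p under 0.05 in the bulk hearts. Edn1 was 2.15, 4.17 and 0.76 FPKM in F/+ and 5.47, 2.46 and 2.59 FPKM in F/F (log2 difference 0.50, -0.49 to 1.48). Hes1 was 17.8, 27.4 and 18.5 FPKM against 23.1, 26.6 and 13.8 FPKM (-0.03, -0.62 to 0.57). Both intervals are wide, and both genes' groups overlapped. Wnt4 lay higher in all 3 F/F hearts, at 6.65, 5.75 and 6.05 FPKM against 4.30, 4.52 and 4.19 FPKM in F/+ (log2 difference 0.42, -0.12 to 0.96, limma adjusted p = 0.999). Twist1 had a log2 difference of -0.62 (-1.49 to 0.26) with overlapping groups. The log2 differences of Nos3 (0.10), Tgfb1 (0.35), Car4 (0.13) and Bmx (-0.16) had intervals that included 0, and their groups overlapped. Clec14a, higher in the F/F members, was 3.33, 2.38 and 2.78 FPKM in F/+ and 8.75, 5.8 and 7.38 FPKM in F/F. All 3 F/F hearts lay above the F/+ hearts, with a log2 difference of 1.11 (SE 0.27, 0.50 to 1.71) and a limma adjusted p = 0.905.

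By list, 19 of 25 pan-endothelial genes had a positive log2 difference in the bulk hearts, with a median of 0.24, and 8 had groups without overlap, against 1061 of 11491 over all genes tested. Of the 14 endocardial genes 12 were positive (median 0.20), and of 19 tested among the 20 genes highest in the members 13 were (median 0.20). Over all genes tested 6016 of 11491 were positive, with a median of 0.02. None of those list genes was called. The 6 hepatocyte genes were also all positive in these hearts (median 1.17), and 1 of 10 mesenchymal genes was (median -0.30). So were 10 of 12 cardiomyocyte genes (0.25), 7 of 7 megakaryocyte genes (0.30) and 6 of 8 epicardial genes (0.18). Of macrophage genes 2 of 8 were positive (-0.18). Of the vascular, arterial and venous lists 4 of 7 (0.13), 6 of 12 (0.0009) and 2 of 6 (-0.18) were. Positive differences were thus not particular to endothelial genes, nor shared by all vessel lists. The part of such differences in tissue make-up in the endothelial values was not tested.

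**Figure D5:**
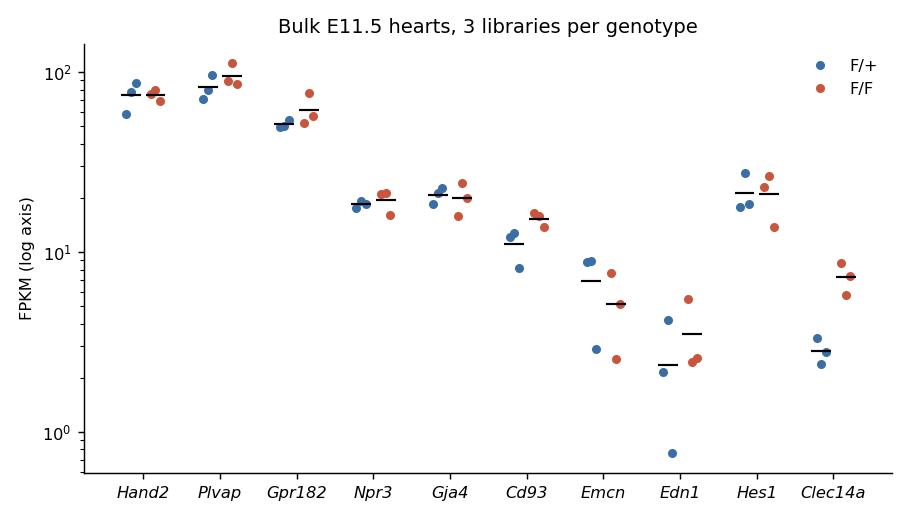
FPKM of 10 genes in the 3 F/+ and 3 F/F bulk hearts, on a log axis, with a point per library and a line at the group mean. Hand2, Plvap, Gpr182, Npr3, Gja4, Emcn, Edn1 and Hes1 overlap between groups, and Cd93 and Clec14a do not.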

How the data were processed

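Single cells of 2 pooled E11.5 heart libraries (+/+ and F/F, 6 hearts each) and 6 bulk E11.5 hearts (3 F/+ and 3 F/F) were analysed. The deposited single-cell table held whole UMI counts, made with Cell Ranger on mm10 per the submitters' processing notes, and barcode endings named the library. Low-count barcodes had been removed before deposit to an extent not given in the sources used here. The deposited bulk table held values taken as FPKM, since no header names a unit. CASAVA, TopHat2 2.0.11 and mm9 are named in the submitters' processing notes. Bulk depth is unknown.

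UMIs were summed over cells and given as CPM. CPM ratios carry exact 95% intervals (binomial, given the sum of both counts), levels exact Poisson intervals and shares Clopper-Pearson intervals, all for counting error only. No doublets were removed in the values reported. Members were clustered in scanpy 1.11.5 (Python 3.11.15) with 1000 variable genes, 20 components and 15 neighbours. Sub-clusters whose pan-endothelial level was at least 0.75 times that of the other members were called endothelial-led. Bulk values were tested with limma 3.58.1 in R 4.3.3 on log2(FPKM + 1), with Benjamini-Hochberg adjustment. This scale understates the change of low genes. The bulk table's 24525 lines held 270 repeated symbols, and merging them left 24026 genes. The ratio and limma steps were tested on simulated data.

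Genes were named by rule: the markers and rule genes, the 20 highest against other cells, the 12 highest and 12 lowest called ratios between libraries, the 10 highest and 10 lowest against cushion cells, Hand2, Hand1 and Hand2os1, leading genes of sub-clusters, and called or high members of fixed lists. The members and lists were chosen with earlier results of these data known. Promoter sequences, gene positions and names came from RefSeq (GRCm38.p6). Replicate numbers of the bulk hearts did not pair them. Alternatives and their effect are given at the end.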

Additional observations from a re-analysis of the deposited data

Results flagged for a closer look

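Coro1a, Plac8 and Aqp1 moved in opposite directions in the members and in the cushion cells that the same rule defines. The F/F over +/+ ratio of Coro1a was 2.40 in members (48 and 154 UMIs) and 0.599 in cushion cells (64 and 59 UMIs). That of Plac8 was 2.57 in members (28 and 96 UMIs) and 0.570 in cushion cells (97 and 85 UMIs). The difference between the cell groups was not tested, since each genotype had 1 library. In the endothelial-led members Coro1a had 1 and 3 UMIs and Plac8 had 7 and 3 UMIs, so most UMIs of both genes lay outside the endothelial-led sub-clusters. Aqp1, the water channel gene that leads sub-cluster 0, had a ratio of 1.69 in members (31 and 70 UMIs), 1.76 in the endothelial-led members and 0.591 in cushion cells (218 and 198 UMIs). It had UMIs in 17.2% and 14.9% of members.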

How the results depend on the processing

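Hand2 was higher in the F/F members under all 11 settings, with log2 ratios from 1.07 to 1.29, and Emcn stayed 61.3-fold to 117-fold above other cells. The count of genes 4-fold above other cells went from 92 to 61 without haemoglobin, mitochondrial, Xist and Y-linked genes in the total, and to 26 when each cell was thinned to 5000 UMIs; it was 65 to 102 otherwise. Thinning, which leaves fewer genes with 100 UMIs, gave 96 calls between libraries (184 to 275 otherwise, 274 as reported) and 63 against cushion cells (142 to 224 otherwise). Plac8 reversed, to log2 ratios of -1.21 with at least 5 endothelial UMIs, -1.44 with a chamber lead of at least 2 UMIs and -1.63 in the endothelial-led members; ratios in these settings set counts under 3 to 3. Leiden resolution 1.0 gave 9 sub-clusters and 0.3 gave 5. Scrublet scores removed 4 and 9 members, and 267 calls were then made. The settings for endothelial-led members, for cells with Xist and no Y-linked UMI (255 calls) and without members holding 3 or more megakaryocyte UMIs (230 calls) were chosen after seeing the data. Leaving out each bulk heart in turn gave 1 to 2 called genes, with 2 without F/+ replicate 3. The replicate block gave 2 calls. Same-numbered hearts had deviations correlated at -0.0356, -0.0174 and 0.0821, and 2 of 6 libraries correlated best with their own number. The bulk log2 differences of the 9 followed genes kept their side of the threshold in all settings. Where a count moved by a setting other than thinning, the cause was not tested.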
